A study of Mus musculus with 6 samples.

Results

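Secreted Wnt inhibitors were examined as a gene group in bulge stem cells (SCs) of the hair follicle. The group was fixed by name and holds Sfrp1, Sfrp2, Sfrp5, Frzb, Dkk1, Dkk2, Dkk3, Wif1, Apcdd1 and Kremen1, which are 10 of the 43274 genes in the deposited tables, and each was found by its symbol. The name of the group is loose for Apcdd1 and Kremen1, whose proteins sit in the membrane. The cells had been sorted from the epidermis of mice at postnatal day 21 by surface CD34 and high α6 integrin, and RNA-seq was done on 3 libraries of each genotype. ILK-K5 mice carried floxed alleles of Ilk, the gene of integrin-linked kinase, on both chromosomes together with a Cre recombinase driven by the keratin 5 promoter, which is active in basal keratinocytes of the whole epidermis and its appendages. Control mice carried a single floxed allele and the same K5-Cre transgene, so that both genotypes expressed Cre and the controls were heterozygous for the deletion (ILK +/- against ILK -/- in the labels). Nothing in the labels says whether replicates came from separate animals, and all p-values here measure the spread between these libraries.

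Wnt proteins are lipid-modified ligands that bind Frizzled receptors and the co-receptors Lrp5 and Lrp6, and this stabilises β-catenin, which then activates genes together with Tcf/Lef factors. Secreted inhibitors act outside the cell. Sfrp proteins, Frzb and Wif1 bind the Wnt ligands themselves, whereas Dkk1 and Dkk2 bind Lrp5 and Lrp6, and Kremen1 is a cell surface receptor for these Dkk proteins. The resting bulge is known for expressing several of these inhibitors, and Wnt activity rises when a new hair cycle starts. The comparison therefore asks whether the transcripts of the inhibitors differed between control and ILK-K5 bulge SCs at an age when control follicles rest.

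None of the 6 members with enough reads to be tested differed between the genotypes at an adjusted p of at most 0.05, in either direction. Transcripts of Sfrp1 and Dkk3 made up nearly the whole group in every library, and their means were 26634 ± 13765 and 8720 ± 4575 normalized counts in control against 27426 ± 3359 and 6067 ± 494 in ILK-K5 libraries (SD, n = 3 each). A normalized count is the number of reads on a gene after scaling each library by its size factor. The libraries of the genotypes overlapped for all 6 tested members. Over all genes tested, 3.53% were called in either direction, 2.93% as higher and 0.599% as lower in ILK-K5, and a count of 0 among 6 genes is near this background and says nothing particular about the members. The remaining 4 members, Sfrp2, Sfrp5, Frzb and Dkk2, stayed below a mean of 10 normalized counts and were not tested.

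Sequence upstream of the members was taken from RefSeq promoters for GRCm38.p6, and 6 of the 10 members had an entry there, namely Sfrp2, Sfrp5, Frzb, Dkk1, Dkk2 and Wif1. The 250 bases before the RefSeq gene start were searched on both strands for CTTTGAT and CTTTGTT, the short motifs that Tcf/Lef factors are known to bind. Only the Dkk1 window held a match, which begins 98 bases before the RefSeq start. Among all 32851 promoters, 8.06% held at least one of these motifs. The match is shown because Dkk1 is the member with this motif, and 206 bases of the Wif1 window are shown beside it because Wif1 varied most between control libraries and its window had no match. Capitals mark the motif, and both sequences read along the strand of their gene.
Dkk1, chr19:30549576-30549605, minus strand: tcccatcccggCTTTGTTgtcttccctgag
Wif1, chr10:121033754-121033959, plus strand: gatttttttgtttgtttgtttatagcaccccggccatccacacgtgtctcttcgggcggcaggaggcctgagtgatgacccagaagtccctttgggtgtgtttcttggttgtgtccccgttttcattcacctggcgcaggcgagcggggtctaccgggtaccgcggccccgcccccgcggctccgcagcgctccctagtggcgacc
In the GENCODE annotation Dkk1 starts farther upstream, and the 30 bases shown lie in its first exon, in the untranslated part. The Wif1 stretch ends directly before the GENCODE start of Wif1. A match or its absence describes these letters only and not the binding of a factor. G and C made up 62.8% of the Wif1 window, which held 21 CpG sites. In the Dkk1 window they made up 60.8%, with 6 CpG sites. The median over all promoters was 52.4% and 6 CpG sites, and the other 4 members ranged between 55.6% and 64.4%, with Dkk2 lowest and Frzb highest.

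Libraries held from 8228019 to 11969072 reads on genes. Transcripts encoded by the mitochondrial genome took 11.5% to 27.6% of these reads in control and 14.4% to 24.2% in ILK-K5 libraries. Levels of Ilk itself did not separate the genotypes (log2 fold change 0.30, SE 0.64, adjusted p 0.933 by limma), at 10.6 to 38.5 normalized counts in control and 14.8 to 30.9 in ILK-K5 libraries. Of its exon bases 89.7% overlap exons of Taf10 and Rrp8 on the opposite strand, and the part of reads from these genes in the Ilk counts was not tested, so directions below rest on the labels. Markers of basal keratinocytes were abundant in all libraries, and 0 of their 8 members were called. Of 8 markers of bulge SCs only Cd34 was called, and it was lower in ILK-K5 libraries (log2 fold change -1.90, SE 0.37, adjusted p 0.0239 by limma), although the cells had been sorted for its protein. Summed over 10 markers of macrophages, levels were 89.7 to 130 normalized counts in control and 9488 to 13189 in ILK-K5 libraries, and all 9 tested markers were called higher. The ILK-K5 libraries thus held RNA of macrophage genes that the control libraries hardly held.

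**Figure D1:**
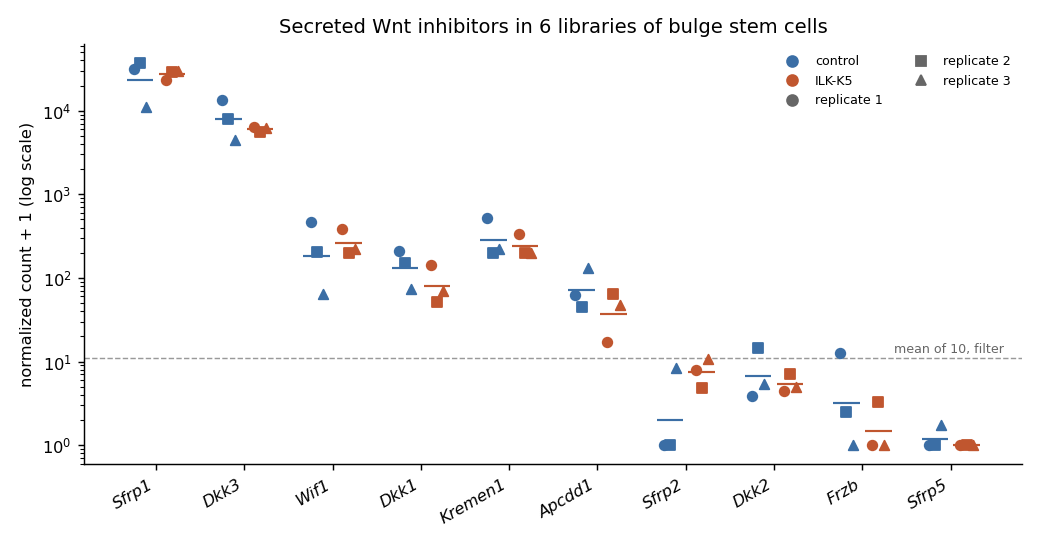
Levels of the 10 genes in each library, as normalized counts plus 1 on a log scale. Blue and orange points are control and ILK-K5 libraries, shapes give the replicate number, short lines are means on the log scale, and the dashed line is the mean of 10 normalized counts below which genes were not tested. Points of both genotypes overlap for each of the 6 genes on the left.

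Members that bind Wnt ligands are described first. Sfrp1 (ENSMUSG00000031548, chr8:23411502-23449632, plus strand), a secreted protein with a Frizzled-like domain, was the most abundant member. Its transcripts were at 31755, 37105 and 11043 normalized counts in control replicates 1 to 3 and at 23571, 28983 and 29724 in the same order of ILK-K5 replicates, an order kept below. The 3 ILK-K5 libraries lay between the lowest and the highest control, and control library 3 stood below all others. In ILK-K5 libraries the log2 fold change was 0.21 (SE 0.49, adjusted p 0.937), with a 95% confidence interval from 0.541-fold to 2.49-fold of the control level. This interval holds the fold changes compatible with these libraries, no change among them, and it is not a limit of detection. Per transcript length, Sfrp1 averaged 634 ± 210 FPKM over the 6 libraries (SD), which placed it at rank 68 of the genes with any read.

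Wif1 (ENSMUSG00000020218, chr10:121033960-121100650, plus strand) encodes a secreted protein with a WIF domain that captures Wnt ligands. Its levels were 468, 205 and 63.1 normalized counts in control libraries and 387, 198 and 223 in ILK-K5 libraries. In control libraries the highest value was 7.41 times the lowest, the widest ratio among the tested members, against 1.95 times in ILK-K5 libraries. The log2 fold change of 0.49 (SE 0.64, adjusted p 0.880) had an interval from 0.518-fold to 3.83-fold. Both genotypes had their highest Wif1 level in replicate 1.

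Sfrp2, Frzb and Sfrp5, which encode further Wnt-binding proteins, were hardly detected. Sfrp2 (ENSMUSG00000027996, chr3:83766321-83774316, plus strand) had 0, 0 and 10 reads in control libraries and 6, 5 and 10 in ILK-K5 libraries. It thus had reads in all ILK-K5 libraries and in a single control library. The 10 reads at the top of each group were worth 7.26 normalized counts in control library 3 and 9.74 in ILK-K5 library 3. Of its exon bases 16.1% overlap an exon of Gm26771 on the opposite strand, and reads on that stretch may belong to either gene. Frzb (ENSMUSG00000027004, chr2:80411970-80447625, minus strand) had 12, 1 and 0 reads in control and 0, 3 and 0 in ILK-K5 libraries, so that most of its reads came from control library 1. Sfrp5 (ENSMUSG00000018822, chr19:42197971-42202252, minus strand) had 1 read in control library 3 and none elsewhere. A count of 0 allows up to 3 reads, which are worth 2.18 to 4.56 normalized counts in these libraries, and this limit covers counting error only. In a fit without the filter on low counts, the log2 fold change of Sfrp2 was 1.88 (SE 1.02, adjusted p 0.718) and that of Frzb was -1.09 (SE 0.94, adjusted p 0.837). For Sfrp5 no fold change is given, since both genotypes lay under the limit of 3 reads.

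Members of the Dkk branch were led by Dkk3 (ENSMUSG00000030772, chr7:112116017-112159057, minus strand), a divergent member of the Dickkopf family that is not known as a strong ligand of Lrp5 and Lrp6. Its transcripts were at 13589, 8059 and 4512 normalized counts in control libraries and at 6467, 5515 and 6219 in ILK-K5 libraries. All 3 ILK-K5 values fell between control libraries 2 and 3. Its log2 fold change was -0.39 (SE 0.40, adjusted p 0.833), with an interval from 0.411-fold to 1.43-fold. The highest level was 3.01 times the lowest among controls but 1.17 times among ILK-K5 libraries, and its mean over all libraries of 226 FPKM put it at rank 188.

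Dkk1 (ENSMUSG00000024868, chr19:30545863-30549665, minus strand), the Lrp5 and Lrp6 antagonist shown above with its motif, was far less abundant. Its levels were 206, 149 and 73.3 normalized counts in control and 140, 50.1 and 69.2 in ILK-K5 libraries. ILK-K5 libraries 2 and 3 lay below all controls, whereas ILK-K5 library 1 lay between control libraries 2 and 3. The log2 fold change of -0.73 (SE 0.51, adjusted p 0.715) had an interval from 0.270-fold to 1.34-fold, which includes no change.

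Kremen1 (ENSMUSG00000020393, chr11:5191552-5261558, minus strand), the Dkk receptor, was at 520, 196 and 218 normalized counts in control and at 335, 199 and 199 in ILK-K5 libraries. Replicates 2 and 3 of both genotypes were nearly level, and replicate 1 was the highest in each. Its log2 fold change was -0.25 (SE 0.42, adjusted p 0.911), and the interval ran from 0.435-fold to 1.63-fold. Dkk2 (ENSMUSG00000028031, chr3:132085292-132180304, plus strand), which also binds Lrp5 and Lrp6, had 3, 9 and 6 reads in control and 3, 8 and 4 reads in ILK-K5 libraries. These counts overlapped and gave a log2 fold change of -0.33 (SE 0.92, adjusted p 0.924) without the filter.

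Apcdd1 (ENSMUSG00000071847, on chromosome 18) encodes a membrane glycoprotein that inhibits Wnt signalling at the receptor level and is known from inherited hair loss. Its levels were 60.8, 44.1 and 129 normalized counts in control and 15.9, 62.5 and 46.8 in ILK-K5 libraries. Control library 3, which was the lowest control for Sfrp1, Dkk1, Dkk3 and Wif1, was the highest for Apcdd1, and ILK-K5 library 1 was the lowest of all. The log2 fold change was -0.94 (SE 0.62, adjusted p 0.684), with an interval from 0.198-fold to 1.37-fold. In sign, 4 tested members were lower and 2 were higher in ILK-K5 libraries, their median log2 fold change was -0.32 against 0.0054 over all 16368 genes tested, and 0 of the 6 reached an unadjusted p below 0.05, against 12.3% of all genes. In these sorted populations a lower level of a transcript cannot be told apart from fewer cells that express it.

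The levels of the members relative to each other were compared in FPKM, which accounts for gene length. Sfrp1 exceeded Dkk3 in 6 of 6 libraries, although the ranges of these genes overlapped between libraries, with 259 FPKM as the lowest Sfrp1 and 415 FPKM as the highest Dkk3 level. Dkk3 stood clear of all remaining members, as its lowest level was 138 FPKM and the highest Wif1 level 19.8 FPKM. Wif1, Dkk1, Kremen1 and Apcdd1 followed with means of 10.9, 4.85, 3.69 and 2.19 FPKM, and the ranges of neighbours in this order overlapped. Each pair of neighbours among these 4 genes stood in this order in 5 of 6 libraries. Sfrp2, Dkk2, Frzb and Sfrp5 had means of 0.220, 0.159, 0.0814 and 0.00653 FPKM, and the lowest Apcdd1 level of 0.584 FPKM was above the highest Sfrp2 level of 0.464 FPKM. The deposited FPKM of Apcdd1 correspond to a much shorter length than its 12884 exon bases in GENCODE. Its place in this order, and its gap to Sfrp2, therefore depend on the length used. Among Sfrp2, Dkk2, Frzb and Sfrp5 the ranges of neighbours overlapped, and their order could not be resolved from so few reads. Dkk2 lay above Sfrp5 in each library, with 0.0803 FPKM as the lowest Dkk2 level. The highest Sfrp5 level was 0.0392 FPKM, from 1 read.

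Summed over the 10 members, levels were 1198, 1136 and 411 FPKM in control and 778, 864 and 904 FPKM in ILK-K5 libraries. The sum averaged 915 ± 438 in control and 849 ± 64.5 in ILK-K5 libraries (SD, n = 3 each), and all ILK-K5 sums lay inside the range of the controls. Sfrp1 and Dkk3 together gave between 96.4% and 98.3% of the sum in each library, and the other 8 members shared 1.73% to 3.56%. The ratio of Sfrp1 to Dkk3 was 1.79, 3.54 and 1.88 in control and 2.80, 4.04 and 3.67 in ILK-K5 libraries. Control libraries 1 and 3 had the lowest ratios and control library 2 lay among the ILK-K5 libraries, with means of 2.40 ± 0.982 and 3.50 ± 0.635 (SD). Control library 3 therefore had less of both transcripts at nearly the same ratio as control library 1.

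**Figure D2:**
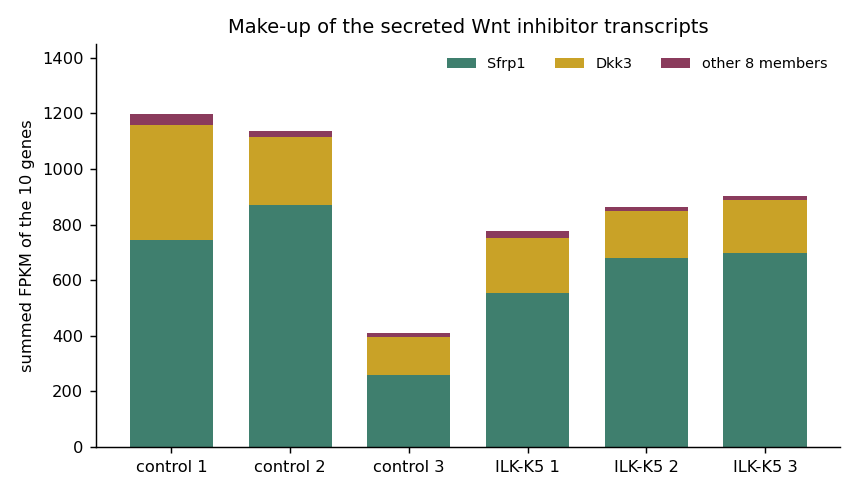
Summed FPKM of the 10 genes in each of the 6 libraries, divided into Sfrp1, Dkk3 and the other 8 members. Sfrp1 is the largest part in each bar, and the sum ranges from 411 FPKM in control library 3 to 1198 FPKM in control library 1, with the ILK-K5 libraries between 778 and 904 FPKM.

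Variation among the control libraries was larger than the difference between genotypes for the abundant members. The SD of log2 levels was 0.95 for Sfrp1 and 0.80 for Dkk3 among control libraries but 0.18 and 0.12 among ILK-K5 libraries, while the median over all genes tested was 0.60 and 0.41. For Wif1 the SD was 1.44 in control and 0.51 in ILK-K5 libraries, and for Kremen1 it was 0.77 and 0.43. Dkk1 varied alike in both genotypes, with 0.76 and 0.75, and Apcdd1 was the member with the larger SD in ILK-K5 libraries, against 0.79 in control libraries. Whether the genotypes differ in this variation was not tested with 3 libraries each.

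Some members shared their highest or lowest library, and no test was made against the shares over all genes. Dkk1, Dkk3, Wif1 and Kremen1, 4 of the 6 tested members, had replicate 1 as the highest library in both genotypes, a pattern found in 24.9% of all genes tested. Sfrp1, Dkk1, Dkk3 and Wif1 had control library 3 as the lowest control, as had 33.2% of all genes. Column names give each replicate a number that is the same in both genotypes. The numbers of replicates 2 and 3 differ in their first digit and share the rest, which replicate 1 does not have. Grouping replicates 2 and 3 by this ending was a choice made here, and the labels do not say what the numbers stand for. Control library 3 also had the lowest share of mitochondrial reads, at 11.5%, and the part of this difference in the levels of the members was not tested.

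Direction depended on single control libraries for 4 members. Without control library 3, the log2 fold change of Sfrp1 became -0.33 and that of Wif1 became -0.27. Without control library 1, that of Dkk3 became 0.0056 and that of Kremen1 became 0.19. Dkk1 and Apcdd1 stayed lower in ILK-K5 libraries whichever library was left out, at -1.15 to -0.41 and -1.33 to -0.37. Libraries 2 and 3 of both genotypes, whose column numbers share their ending, were also fitted alone. The values were then -0.82 for Dkk1, -0.04 for Dkk3, 0.88 for Wif1, 0.54 for Sfrp1, -0.06 for Kremen1 and -0.48 for Apcdd1. No member was called in any of these fits, and the lowest adjusted p over all 17 alternatives was 0.263, for Dkk3.

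**Figure D3:**
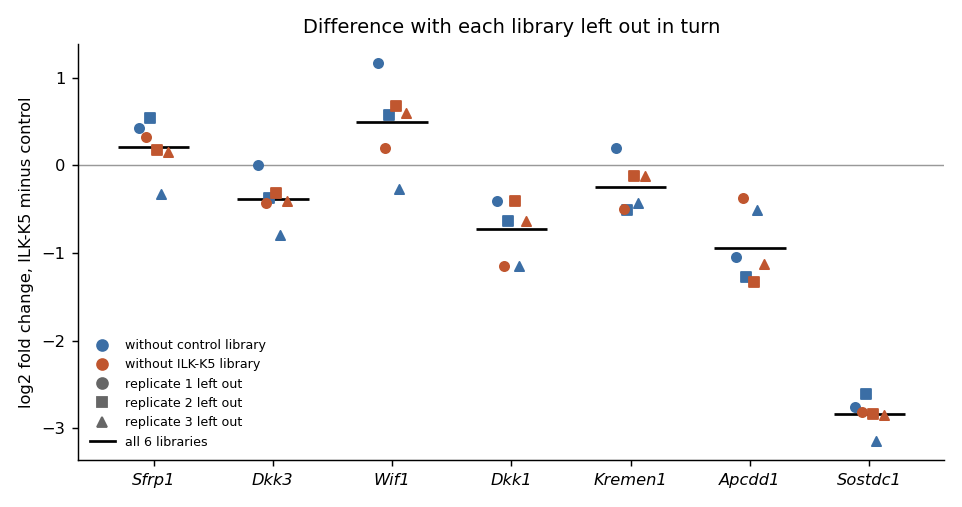
Log2 fold change (ILK-K5 minus control) of the 6 tested members and of Sostdc1 when each library was left out in turn. Point colour gives the genotype and point shape the replicate left out, and black lines are the values with all 6 libraries. Points of Sfrp1, Dkk3, Wif1 and Kremen1 lie on both sides of 0, whereas Sostdc1 stays between -3.14 and -2.60.

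Other extracellular or membrane inhibitors of Wnt signalling were compared as a list of 17 genes, of which 11 were tested and 1 was called. This was Sostdc1 (ENSMUSG00000036169, chr12:36314139-36318452, plus strand), a secreted antagonist of Bmp ligands that also binds Lrp5 and Lrp6. Its levels were 6169, 7662 and 3621 normalized counts in control and 755, 783 and 793 in ILK-K5 libraries, so that the lowest control exceeded the highest ILK-K5 library by a wide gap. Sostdc1 fell by 2.84 on the log2 scale (SE 0.31, adjusted p 0.00124), to 0.140-fold of the control level with an interval from 0.0861-fold to 0.228-fold, and it was called in all 17 alternatives. Per length, Sostdc1 averaged 341 ± 120 FPKM in control and 45.5 ± 1.16 FPKM in ILK-K5 libraries (SD, n = 3 each), against 266 ± 140 and 185 ± 15.1 FPKM for Dkk3, so that it lay below Dkk3 in every ILK-K5 library. Unlike Sfrp1 and Dkk3, it was lower in ILK-K5 libraries by more than the spread between control libraries. The interval of Sostdc1 did not reach those of Sfrp1 and Dkk3, although the differences between the genes themselves were not tested.

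Igfbp4, a binding protein of insulin-like growth factors that also inhibits Wnt signalling, was chosen for mention after its values were seen. It was at 2472, 2495 and 2384 normalized counts in control and 805, 1583 and 1520 in ILK-K5 libraries, and its adjusted p was 0.168 (log2 fold change -0.97, SE 0.31). It was called, at the same fold change, once a term for the number in the column names was added (adjusted p 0.0427). Its libraries did not overlap between genotypes, which held for 17.9% of all genes tested and for 2 of the 11 tested inhibitors in this list, with a median log2 fold change of -0.21. Dkk4 and Sost had no read in any library.

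**Figure D4:**
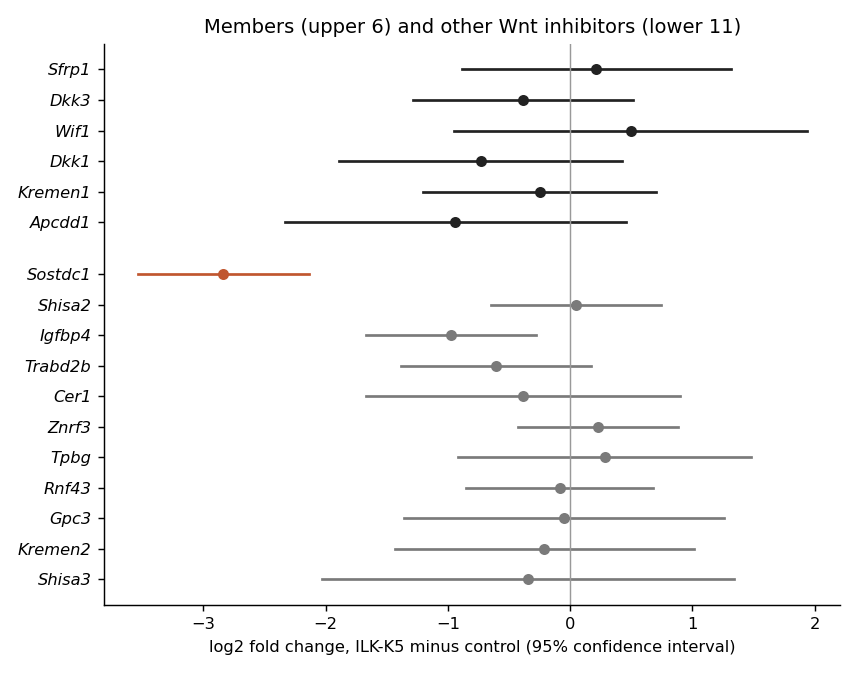
Log2 fold change (ILK-K5 minus control) with its 95% confidence interval from limma for the 6 tested members in the upper part and for the 11 other tested inhibitors in the lower part. The intervals of all 6 members include 0, and Sostdc1, in orange, is the only gene called, at -2.84.

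The rest of the pathway was taken from lists of 91 other Wnt pathway genes, inhibitors included, of which 67 were tested. Among these 1 was called higher and 2 were called lower, 21 did not overlap between genotypes, against 17.9% of all genes tested, and the median log2 fold change was -0.05. Of 19 Wnt ligands 9 were tested and none was called by limma, while 5 had an unadjusted p below 0.05, against 12.3% of all genes. In 4 of these 5 the ILK-K5 libraries lay above all controls. Those of Wnt7b, named here with its values known, lay below all controls (log2 fold change -1.36, adjusted p 0.0980). The median log2 fold change of the 9 was 0.83. Wnt10a, the ligand with the highest mean FPKM, was at 114, 132 and 76.9 normalized counts in control and 200, 194 and 169 in ILK-K5 libraries, with an adjusted p of 0.324 (log2 fold change 0.83, SE 0.33). All 3 ILK-K5 libraries were above the controls. Wnt9b had no read.

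Of 16 receptors and co-receptors 15 were tested, and Fzd9 was the only one called. This Frizzled gene had 44.4, 12.2 and 27.6 normalized counts in control libraries and at most 0.974 in ILK-K5 libraries, at least 9.72-fold lower when ILK-K5 libraries are set at 3 reads each (adjusted p 0.0312), and its call was lost in all 5 fits that omitted a library and still tested it (adjusted p 0.0675 to 0.124). Without control library 1 it was below the filter. The receptor gene with the highest FPKM, Fzd1, gave a log2 fold change of 0.08 (SE 0.31, adjusted p 0.966), and the median of the list was -0.20. Lrp5 and Lrp6, the targets of Dkk1 and Dkk2, were chosen for mention with their values known and gave -0.40 and -0.09, with adjusted p of 0.690 and 0.956.

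Among R-spondins, norrin and their receptors 4 of 8 genes were tested and none was called, with Lgr4 as the most abundant at a log2 fold change of -0.35 (adjusted p 0.817) and a median of -0.20. Both genes of Wnt processing and secretion were tested and not called, and they differed in sign. Wls, the more abundant, was at -0.29 (adjusted p 0.819). Porcn, which attaches the lipid to Wnt proteins and is named here with its values known, was at 2.13 (SE 0.59, adjusted p 0.105), with 20.3, 10.6 and 47.2 normalized counts in control and 153, 81.0 and 77.9 in ILK-K5 libraries, which did not overlap. All 10 cytoplasmic transducers were tested without a call at a median of 0.18, and Ctnnb1, the gene of β-catenin, was at 0.19 (adjusted p 0.944), with 15.1% of its exon bases shared with other genes. None of the 4 Tcf/Lef genes was called, and Tcf7l2, the most abundant by FPKM, was at 0.13 (adjusted p 0.932) with a median of 0.26. Among 15 Wnt targets and intracellular feedback genes 12 were tested, the median was -0.25, and Jun was the most abundant at 0.58 (adjusted p 0.835).

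Cd44, a hyaluronan receptor and Wnt target, was the only called target, at 2892, 2919 and 2125 normalized counts in control and 6366, 6540 and 5508 in ILK-K5 libraries. Cd44 rose by 1.23 on the log2 scale (SE 0.26, adjusted p 0.0370), with libraries that did not overlap, and missed the threshold when any one library was left out (adjusted p 0.0547 to 0.189). Cd44 is also expressed by macrophages, whose markers rose in the ILK-K5 libraries as given above, and the part of these cells in the Cd44 level was not tested.

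Some of the members, such as the hardly detected Sfrp2 and Frzb and the more abundant Wif1, are known from dermal fibroblasts and the dermal papilla. Of 8 fibroblast markers 6 were tested, and all 6 had a positive log2 fold change. Col3a1 and Dpt were called higher, whereas Fbln1, at 0.0019, and Dcn, at 0.61, overlapped between genotypes. Summed over the 8, levels were 1092 to 1524 normalized counts in control and 2278 to 2812 in ILK-K5 libraries. Lum was at 0 in all controls. Of 6 dermal papilla markers 3 were tested, of which 2 had a positive and 1 a negative log2 fold change. Vcan was called higher, from a mean of 20.8 to 229 normalized counts. Hhip went the other way without a call (log2 fold change -2.40, adjusted p 0.159 by limma). Its levels were 71.4, 66.9 and 13.1 in control and 5.69, 6.94 and 7.79 in ILK-K5 libraries. The sums were 107 to 134 in control and 300 to 402 in ILK-K5 libraries, with Sox2 at 0 in all libraries. Vcan alone gave 17.4, 16.7 and 28.3 of these sums in control and 357, 177 and 151 in ILK-K5 libraries. Crabp1, the other marker with a positive log2 fold change, overlapped between genotypes. The part of such cells in the reads of Sfrp2, Frzb and Wif1 was not tested. Of the other lists, inner bulge and companion layer had Krt6a and Krt6b called higher and Fgf18 lower among 4 genes, and hair germ had no call among 3 tested genes. Lor was called lower among 5 tested genes of differentiated keratinocytes, Cd2 higher among 5 tested T cell markers and Mitf lower among 5 tested melanocyte markers. None of 2 tested endothelial markers was called.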

How the data were processed

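RNA of sorted bulge SCs was amplified as cDNA with Ovation RNA-Seq V2, converted to Nextera XT libraries and sequenced. According to the study's methods, adapters and ribosomal reads were removed before alignment, and per the submitters' processing notes the tools were TopHat2 2.0.14, Bowtie2 2.2.4, GRCm38 and DESeq2 1.6.3. The counter of reads is not given in the sources used here. The deposited signal table holds reads per gene that the authors divided by a DESeq2 size factor for each library. All values (100%) were whole reads within a tolerance of 0.01 once divided by the value of 1 read, and the reads were recovered in this way. FPKM values, as deposited by the authors, are proportional to these per gene and served for comparing genes. Tables of the authors' own comparison hold fold changes, standard errors and p-values and were not used. Symbols and coordinates came from GENCODE M21 for GRCm38, and 42107 of 43274 identifiers (97.3%) matched.

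Genotypes were compared with limma 3.58.1 (trend, two-sided) in R 4.3.3, using log2-transformed normalized counts with a pseudocount of 1, for 16368 genes with a mean of at least 10, with Benjamini-Hochberg adjustment over all of them. Genes were called at an adjusted p of at most 0.05, and a fold change understates the change of low genes on this scale. An exact permutation test of 3 against 3 libraries cannot go below 0.1 and was not used. The procedure was tested on simulated data. Alternatives tried were TMM factors, a pseudocount of 0.1 or 5, no filter or a mean of at least 50, scaling to basal keratinocyte markers, edgeR 4.0.16 and DESeq2 1.42.0 on the recovered reads, a replicate block, a term for the number in the column names, replicates 2 and 3 only, and leaving out each library. The term for the number in the column names set replicate 1 apart from replicates 2 and 3. Tables and plots were made with Python 3.11.15, pandas 2.3.3 and matplotlib 3.10.9.

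The members and all gene lists (Wnt pathway lists and markers of bulge SCs, basal and differentiated keratinocytes, inner bulge, hair germ, fibroblasts, dermal papilla, macrophages, T cells, endothelial cells and melanocytes) were chosen with earlier results of these data known. Genes named were all members, each called gene of the other Wnt lists, the gene with the highest FPKM in each list, and called markers. Others were chosen after their values were seen.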

Additional observations from a re-analysis of the deposited data

How the results depend on the processing

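No member was called in any of the 17 alternatives. Dkk1 and Apcdd1 kept a negative sign in all of them. With each library left out, the log2 fold change ranged from -0.33 to 0.54 for Sfrp1, from -0.27 to 1.17 for Wif1, from -0.79 to 0.0056 for Dkk3 and from -0.51 to 0.19 for Kremen1. The sign changed without control library 3 for Sfrp1 and Wif1 and without control library 1 for Dkk3 and Kremen1. In the same fits, the number of genes called over the whole table ranged from 217 to 554 higher and from 32 to 93 lower, against 479 and 98 with all 6, and the fits on fewer libraries have fewer degrees of freedom. DESeq2 called 772 higher and 280 lower, and a term for the number in the column names 846 and 286. The cause was not tested. A replicate block gave 848 higher and 269 lower, with no member called. The replicate numbers were not taken as pairing the libraries, since deviations of same-numbered libraries correlated at 0.529, 0.0198 and 0.307, and control library 3 correlated best with ILK-K5 library 2, at 0.498. Igfbp4 was called with the block (adjusted p 0.0488) and with the column term (adjusted p 0.0427). Fzd9 was called in 8 of the 15 alternatives that tested it and Cd44 in 7 of 17. Without the filter on low counts the median of all genes moved to -0.10. Reads limit Sfrp2, Sfrp5, Frzb and Dkk2, each with at most 12 reads in any library.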
